A study of Homo sapiens with 6 samples.

Results

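The genes described here encode chromatin modifiers and readers, the enzymes that place or remove marks on histones and DNA and the proteins that bind those marks or move nucleosomes. They were chosen by symbol alone, as the listed protein-coding genes of the KAT, KDM, KMT, HDAC, SIRT, PRMT, SETD, BRD, CHD, SMARC, ARID, DPF, YEATS, TAF, CBX, PHF, ING, DNMT and TET families, and numbered 32 of the 6641 genes in the deposited table. RNA was sequenced from HCC827_Er cells (3 libraries) and HCC827 cells (3 libraries). HCC827 is an established line from a human lung adenocarcinoma, driven by mutant EGFR. The labels give HCC827_Er by name only, without its drug, dose or clonal origin, while the title of the series calls its cells parental and resistant. The study asks how lysine crotonylation of histones relates to resistance to EGFR kinase inhibitors. The labels do not say whether replicate libraries were grown as separate cultures, and the p-values then reflect library-to-library spread, which may be technical. The labels name lung as the tissue and their extraction protocol speaks of tissue samples. In bulk RNA, fewer cells of a kind and less RNA per cell cannot be told apart.

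Acetyltransferases and methyltransferases write marks on histone tails, deacetylases and demethylases erase them, and proteins with bromodomains, chromodomains or PHD fingers read them. DNMT enzymes methylate cytosines in DNA and TET dioxygenases oxidise the methyl group, the first step of its removal. ATP-driven remodellers such as the SWI/SNF complexes slide or evict nucleosomes and are often altered in lung cancer. Several of the families also handle acyl marks other than acetylation, crotonylation among them.

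All values are FPKM, fragment counts corrected for transcript length and for the number of mapped fragments, so that levels of different genes can be set side by side per length. The table holds no counts, so the depth behind each value was unknown, and library sums over the table ran from 184633 to 224211 FPKM. Differences were tested with limma on log2(FPKM + 1), HCC827_Er minus HCC827, and a gene was called at a Benjamini-Hochberg adjusted p under 0.05 and a log2 difference of at least 1 in either direction. The table is not a sample of the transcriptome: 96.1% of its genes showed no overlap between HCC827_Er and HCC827 libraries, and an adjusted p under 0.05 was found for 98.3% of those tested. Of 2362 genes with a mean of at least 10 FPKM, only 58 had line means within 1.4-fold of each other. Of the lung epithelial markers 7 of 9 were listed, with a summed level of 2870 to 2967 FPKM in HCC827_Er libraries and 2197 to 2291 FPKM in HCC827 libraries. All but KRT8 of the 7 were called higher, among them the lung lineage factor NKX2-1, at a mean of 65.7 FPKM in HCC827_Er and 5.93 FPKM in HCC827. Leukocyte markers (4 of 9 listed) summed to 123 to 136 FPKM in HCC827_Er and 171 to 178 FPKM in HCC827, most of it CD68, which was not called. The other 3, CD14, LAPTM5 and CSF1R, were low and called higher, with means of 1.73, 4.49 and 5.45 FPKM in HCC827_Er and 0.207, 0.903 and 0.23 FPKM in HCC827. Fibroblast markers (3 of 6) summed to 9.33 to 11.5 FPKM in HCC827_Er and 2.46 to 3.35 FPKM in HCC827. Only COL1A1 of them was higher in HCC827_Er, and called, at means of 10.1 FPKM in HCC827_Er and 0.75 FPKM in HCC827. LUM, at 0.53 FPKM in HCC827_Er and 1.81 FPKM in HCC827, and COL3A1 were lower. Endothelial markers (2 of 5) summed to 6.83 to 7.78 FPKM in HCC827_Er and 8.48 to 9.57 FPKM in HCC827. COL3A1 was listed at 0 in all HCC827_Er libraries and CDH5 at 0 in all HCC827 libraries. The part of other cell types in the results below was not tested.

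Most listed members stood higher in HCC827_Er, by modest amounts. In 23 of the 32 members every HCC827_Er library lay above every HCC827 library, in the other 9 every HCC827_Er library lay below, and no member overlapped between the lines. Over the whole table the lines were separated with HCC827_Er above for 50.7% of the genes. Of the 32 members 31 reached the minimum of 1 FPKM in at least 3 libraries and were tested, and TET1 did not. ARID3A, CBX2, HDAC6 and DNMT3A were called higher and PHF7, KDM1B, ARID5B and CHD9NB lower. That is 4 of 31 in each direction, where 24.7% of the 5276 tested genes were called higher and 19.7% lower. The median log2 difference was 0.65 over the tested members and 0.43 over all tested genes. In a table with few genes near 0 such a median follows the share of positive differences: 22 of 31 members were positive, against 51.4% of all tested genes. Fold changes of the line means ran from 1.49 for CBX7 to 4.55 for ARID3A, and 22 of the 32 members differed by less than 2-fold. The families were thinly listed: the annotation holds 196 protein-coding genes that match the symbol rule, of which 32 were in the table used here (16.3%), against 26.3% of all protein-coding genes. No PRMT, SETD, BRD or YEATS gene was analysed here, while all 3 TET genes and 3 of 4 DNMT genes were.

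**Figure D1:**
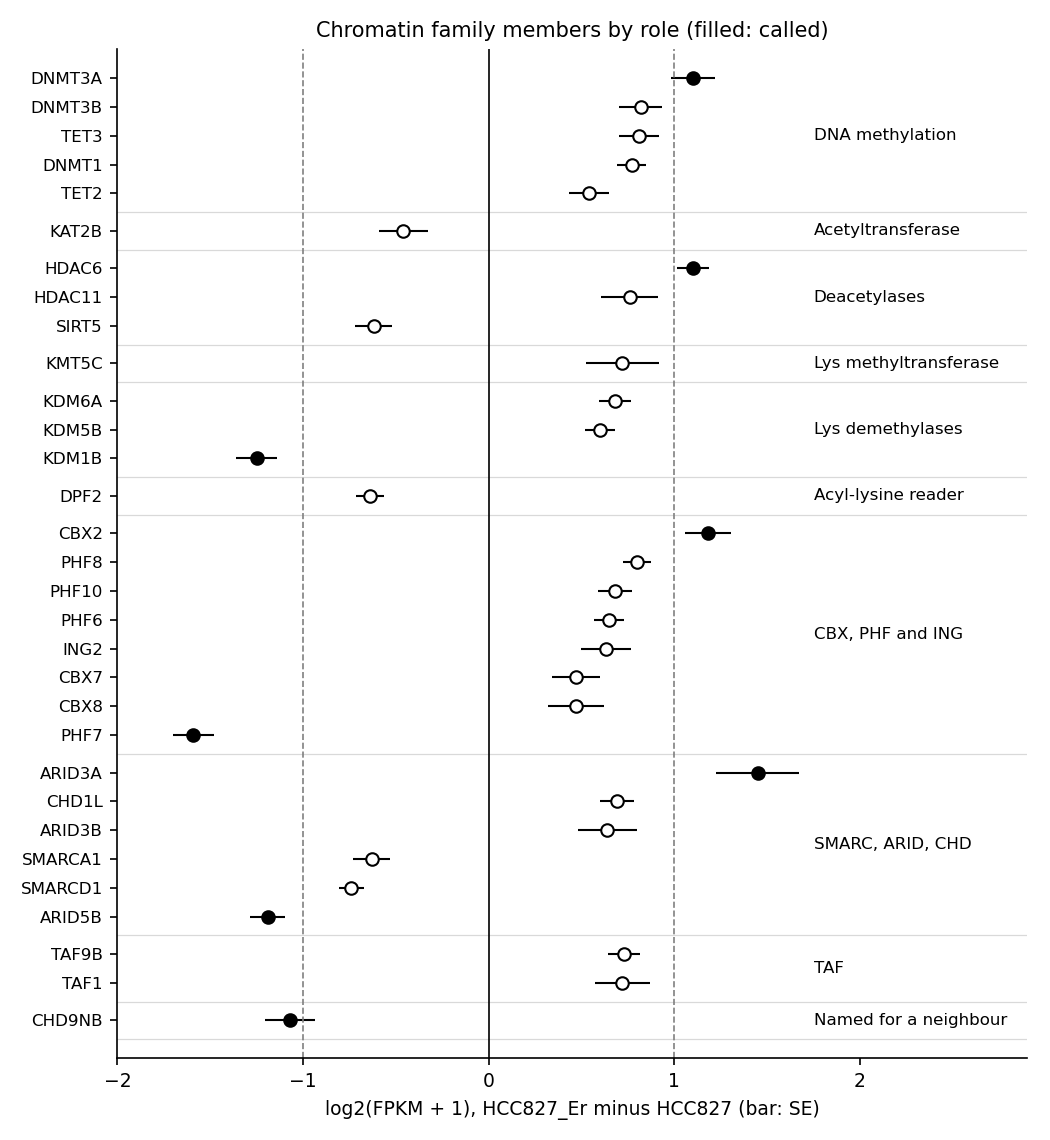
Log2(FPKM + 1) difference, HCC827_Er minus HCC827, for the 31 tested members grouped by role, with bars for the standard error and dashed lines at the call limits of -1 and 1. Filled points are the 8 called members; 22 points lie right of 0 and 9 lie left of it.

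All 6 listed genes of DNA methylation and demethylation stood higher in HCC827_Er, and 1 of the 5 tested, DNMT3A, was called. Over the whole table every HCC827_Er library lay above for 50.7% of the genes, and 24.7% of all tested genes were called higher. DNMT3A, which sets new methylation, measured 15.85, 13.55 and 14.10 FPKM in HCC827_Er libraries and 7.01, 5.28 and 6.54 FPKM in HCC827 libraries. The lowest HCC827_Er value stood far above the highest HCC827 value, and the log2 difference was 1.10 (SE 0.118, limma adjusted p = 2.39e-05). Without HCC827 replicate 2, the lowest of its line, it was 0.99 and DNMT3A was not called, nor was it with median-ratio rescaling (0.78). DNMT3B, the other de novo enzyme, measured 15.37, 15.02 and 14.67 FPKM in HCC827_Er and 6.82, 8.06 and 9.49 FPKM in HCC827. HCC827_Er was thus higher with little spread, by 0.82 on the log2 scale (SE 0.116, limma adjusted p = 0.000129), short of the limit. The maintenance enzyme DNMT1, which copies methylation onto new DNA strands, was the most abundant of all members. It measured 144.27, 147.45 and 132.86 FPKM in HCC827_Er and 79.52, 76.64 and 91.59 FPKM in HCC827, a log2 difference of 0.77 (SE 0.0768, limma adjusted p = 1.44e-05).

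The opposing TET dioxygenases stood higher in the same line, at far lower levels than DNMT1. TET3 measured 4.97, 5.0 and 4.96 FPKM in HCC827_Er and 2.2, 2.40 and 2.66 FPKM in HCC827 (log2 difference 0.81, SE 0.107, limma adjusted p = 8.84e-05). TET2 measured 3.40, 3.43 and 3.79 FPKM in HCC827_Er and 2.09, 2.02 and 2.25 FPKM in HCC827 (log2 difference 0.54, SE 0.106, limma adjusted p = 0.000999). TET1 was barely present in either line, at 0.29, 0.36 and 0.22 FPKM in HCC827_Er and 0.09, 0.05 and 0.09 FPKM in HCC827, and was too low to test. Within a library, where library scaling cancels, TET3 was 1.46, 1.46 and 1.31 times TET2 in HCC827_Er and 1.05, 1.19 and 1.18 times TET2 in HCC827, so the gap between them was wider in HCC827_Er. The ratio of DNMT3A to DNMT3B overlapped between the lines, at 1.03, 0.902 and 0.961 in HCC827_Er and 1.03, 0.655 and 0.689 in HCC827.

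**Figure D2:**
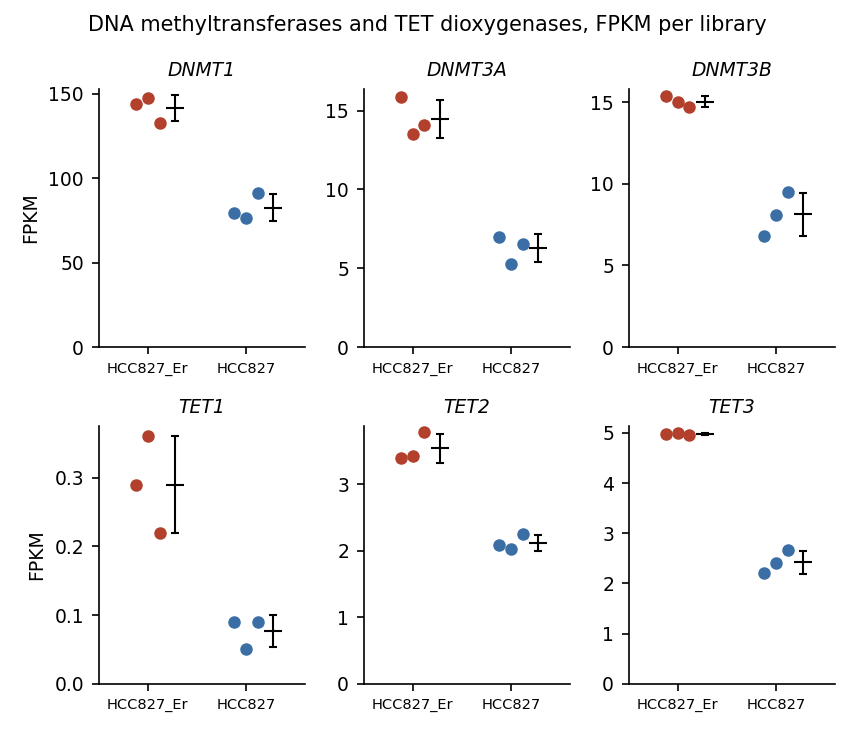
FPKM of the DNMT and TET genes in each of the 3 HCC827_Er (red) and 3 HCC827 (blue) libraries, each panel with its own axis from 0 and with the mean and SD in black. In all 6 panels the HCC827_Er libraries lie above the HCC827 libraries, from TET1 at a mean of 0.29 FPKM in HCC827_Er to DNMT1 at 142 FPKM.

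Other genes of DNA methylation and its readers differed in both directions. Of 18 names listed for this group outside the symbol rule 9 were tested, and 6 differences were positive, against 51.4% of all tested genes. Of the 9, 3 were called higher and none lower, where 24.7% and 19.7% of all tested genes were, and the median log2 difference was 0.87. IDH1, which makes the cosubstrate of the TET enzymes, rose to 110 ± 9.96 FPKM in HCC827_Er, against 41.6 ± 1.08 FPKM in HCC827 (SD, n = 3 each), a log2 difference of 1.37. ZBTB33, which encodes the methyl-DNA binding factor Kaiso, rose to 20.5 ± 2.05 FPKM in HCC827_Er, against 9.10 ± 0.487 FPKM in HCC827. With median-ratio rescaling of the libraries, described below, IDH1 stayed past the limit, ZBTB33 did not, and 3 other genes of the group were called lower.

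Among the erasers of acyl marks only HDAC6 was called. HDAC6, a largely cytoplasmic deacetylase of tubulin and HSP90, measured 19.85, 20.95 and 18.94 FPKM in HCC827_Er and 9.45, 8.38 and 8.47 FPKM in HCC827. Its libraries formed tight groups far apart (log2 difference 1.10, SE 0.0864, limma adjusted p = 3.29e-06). With median-ratio rescaling the difference was 0.78 and HDAC6 was not called. HDAC11, the class IV enzyme with defatty-acylase activity, measured 9.66, 6.23 and 8.24 FPKM in HCC827_Er and 4.81, 4.01 and 4.04 FPKM in HCC827, with a wide spread in HCC827_Er and a log2 difference of 0.76. SIRT5, a mostly mitochondrial sirtuin that removes succinyl and other acidic acyl groups, measured 6.77, 6.50 and 5.69 FPKM in HCC827_Er and 10.77, 10.27 and 9.63 FPKM in HCC827. SIRT5 was thus lower in every HCC827_Er library, by -0.62 on the log2 scale, and was not called. On the writing side KAT2B, the acetyltransferase PCAF, was the single listed member, at 2.05, 1.99 and 2.67 FPKM in HCC827_Er and 3.42, 3.03 and 3.93 FPKM in HCC827. Its log2 difference of -0.46 (limma adjusted p = 0.0081) was the smallest of the negative ones. Outside the symbol rule, 7 of 38 names of other acetyltransferases and their complexes were tested, and JADE1 alone was called, lower, at 8.0 ± 0.476 FPKM in HCC827_Er and 17.5 ± 0.766 FPKM in HCC827. Among all tested genes, 24.7% were called higher and 19.7% lower. JADE1 is a scaffold of the HBO1 acetyltransferase complex, and with the sum rescaling it was not called.

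The lysine demethylases split. KDM1B (ENSG00000165097, chromosome 6 from 18155329 to 18223853 in GENCODE 29 on GRCh38), also called LSD2, removes methyl groups from the lysine of histone H3 that marks active promoters. It measured 6.17, 6.11 and 7.90 FPKM in HCC827_Er and 16.41, 17.57 and 17.93 FPKM in HCC827. KDM1B fell in HCC827_Er, 2.57-fold by the line means (log2 difference -1.25, SE 0.111, limma adjusted p = 6.87e-06). KDM5B, a demethylase of the same residue from another enzyme class, measured 19.94, 22.60 and 20.90 FPKM in HCC827_Er and 13.68, 13.07 and 13.95 FPKM in HCC827 (log2 difference 0.60). KDM5B was higher and KDM1B lower in every HCC827_Er library, so their ratio could only be higher there. Within a library KDM5B was 3.23, 3.70 and 2.65 times KDM1B in HCC827_Er. In HCC827 it was 0.834, 0.744 and 0.778 times KDM1B, so the more abundant of them differed between the lines. KDM6A, which encodes the demethylase UTX that opposes Polycomb repression, measured 16.21, 16.81 and 16.42 FPKM in HCC827_Er and 10.61, 9.05 and 10.22 FPKM in HCC827 (log2 difference 0.68). PHF8, a PHD finger demethylase of repressive histone marks, measured 27.79, 27.38 and 26.0 FPKM in HCC827_Er and 14.72, 14.62 and 16.09 FPKM in HCC827. Its log2 difference of 0.80 (SE 0.0742, limma adjusted p = 9.46e-06) was among the closest to the limit. The single listed histone methyltransferase that matched the symbol rule was KMT5C, which places the methyl marks of histone H4 in heterochromatin. It measured 20.79, 13.69 and 13.18 FPKM in HCC827_Er and 11.17, 7.11 and 9.39 FPKM in HCC827, a log2 difference of 0.72 (limma adjusted p = 0.00646) that was 0.52 without HCC827_Er replicate 1. Of 36 further names of lysine methyltransferases and their complexes 5 were tested and none called. By comparison, 24.7% of all tested genes were called higher and 19.7% lower. The log2 differences ran from -0.66 for PRDM4 to 0.91 for CXXC1. All 5 had an adjusted p under 0.05, as did 98.3% of all tested genes.

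The promoters of KDM1B and ARID5B are shown because, of the 4 called members with the largest differences, these 2 had an entry in the promoter table used here. Both come from RefSeq on GRCh38.p14, plus strand, with 250 bases before and 50 after the gene start annotated there. They lie at chr6:18155172-18155471 and chr10:61901449-61901748. The GENCODE start of KDM1B, 18155329, falls inside its window. That of ARID5B, 61901300, lies before its whole window, which thus holds no sequence upstream of the GENCODE start. Capitals mark matches to any of 3 motifs on either strand. The GC box was searched as GGGCGG. The second motif was the CCAAT box by its own letters. The TATA box was searched as TATAAA. No matches to different motifs overlapped in these windows.
KDM1B: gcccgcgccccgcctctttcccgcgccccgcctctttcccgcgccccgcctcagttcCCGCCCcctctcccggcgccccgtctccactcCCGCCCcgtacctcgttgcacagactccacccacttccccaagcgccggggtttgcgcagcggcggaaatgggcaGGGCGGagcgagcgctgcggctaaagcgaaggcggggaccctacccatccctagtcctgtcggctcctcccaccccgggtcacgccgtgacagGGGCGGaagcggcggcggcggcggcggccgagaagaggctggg
ARID5B: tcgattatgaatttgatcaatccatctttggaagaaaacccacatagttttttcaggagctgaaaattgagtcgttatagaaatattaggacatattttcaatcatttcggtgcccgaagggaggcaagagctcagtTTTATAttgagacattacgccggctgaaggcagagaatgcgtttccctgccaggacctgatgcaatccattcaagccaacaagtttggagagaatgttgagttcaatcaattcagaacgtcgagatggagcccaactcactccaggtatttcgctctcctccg
The KDM1B window had 39 CpG dinucleotides, 74.7% G and C and 4 GC boxes. The ARID5B window had 11 CpG dinucleotides, 43.0% G and C, no GC box and 1 TATA box on the opposite strand. These ARID5B values describe sequence inside the gene as GENCODE places it, and the sequence before its GENCODE start was not examined. Over the 25 members with a window in the same source the median was 30 CpG, against 14 over all 35116 windows, which include noncoding genes. GC boxes lay in 15 of the 25 (45.0% of all windows), CCAAT boxes in 7 (34.6%) and a TATA box in ARID5B alone (11.5%). No promoter was assayed here, and the start sites used in these cells were not measured.

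Of the 8 listed CBX, PHF and ING genes, 7 stood higher in HCC827_Er, with CBX2 called higher and PHF7 called lower. Over the whole table every HCC827_Er library lay above for 50.7% of the genes. Of all tested genes 24.7% were called higher and 19.7% lower. CBX2, CBX7 and CBX8 are alternative chromodomain subunits of Polycomb repressive complex 1, of which a complex holds one. CBX2 (ENSG00000173894, chromosome 17 from 79778132 to 79787983) measured 4.18, 3.63 and 4.05 FPKM in HCC827_Er and 1.5, 1.09 and 1.00 FPKM in HCC827, a rise of 1.18 on the log2 scale (SE 0.125, limma adjusted p = 2.2e-05), and it was not called with median-ratio rescaling (0.94). Its neighbour CBX8 measured 3.56, 4.46 and 5.35 FPKM in HCC827_Er and 3.31, 2.46 and 2.98 FPKM in HCC827, where the nearest libraries of the lines almost met (log2 difference 0.47). CBX7 measured 5.43, 6.32 and 4.59 FPKM in HCC827_Er and 3.48, 3.50 and 3.95 FPKM in HCC827 (log2 difference 0.47). CBX2 was the least abundant of the 3 in HCC827 at 1.20 FPKM and came close to CBX8 in HCC827_Er, at 3.95 against 4.46 FPKM. The ratio of CBX2 to CBX7 was 0.770, 0.574 and 0.882 in HCC827_Er and 0.431, 0.311 and 0.253 in HCC827, without overlap, while that of CBX8 to CBX7 overlapped.

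PHF7 (ENSG00000010318, chromosome 3 from 52410657 to 52423641), a histone ubiquitin ligase known from mouse sperm development, showed the largest fall of all members. It measured 1.58, 1.27 and 1.37 FPKM in HCC827_Er and 5.86, 6.63 and 6.31 FPKM in HCC827, 4.45-fold lower in HCC827_Er (log2 difference -1.59, SE 0.111, limma adjusted p = 1.58e-06). PHF6, a nucleolar PHD protein mutated in leukaemia, measured 23.75, 26.84 and 26.80 FPKM in HCC827_Er and 15.63, 15.62 and 17.10 FPKM in HCC827 (log2 difference 0.65). ING2, a PHD reader that brings the SIN3 deacetylase complex to active promoters, measured 9.24, 11.73 and 8.36 FPKM in HCC827_Er and 6.56, 5.40 and 5.79 FPKM in HCC827 (log2 difference 0.63). Neither was called.

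Polycomb and BAP1 genes outside the symbol rule were called both ways. Of 32 names 11 were tested, 2 were called higher, where 24.7% of all tested genes were, and 2 lower, where 19.7% were, with a median log2 difference of -0.48. EZH2, the methyltransferase of Polycomb repressive complex 2, rose to 30.3 ± 0.323 FPKM in HCC827_Er, against 14.4 ± 0.746 FPKM in HCC827. Its cofactor JARID2 rose to 7.70 ± 0.604 FPKM in HCC827_Er, against 2.91 ± 0.0351 FPKM in HCC827. With median-ratio rescaling neither was called. The largest falls were those of EPOP, another cofactor of that complex, at 6.94 ± 0.248 FPKM in HCC827_Er and 67.0 ± 6.75 FPKM in HCC827, and of PCGF2, a subunit of Polycomb repressive complex 1, at 20.1 ± 1.8 FPKM in HCC827_Er and 144 ± 3.43 FPKM in HCC827. MLLT6, of the group of chaperones and acyl-lysine readers, fell in like measure to 66.5 ± 6.64 FPKM in HCC827_Er, against 473 ± 26.9 FPKM in HCC827. EPOP, MLLT6 and PCGF2 start within 1 stretch of chromosome 17, at 38671703, 38705542 and 38733897 (GENCODE 29, GRCh38).

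**Figure D3:**
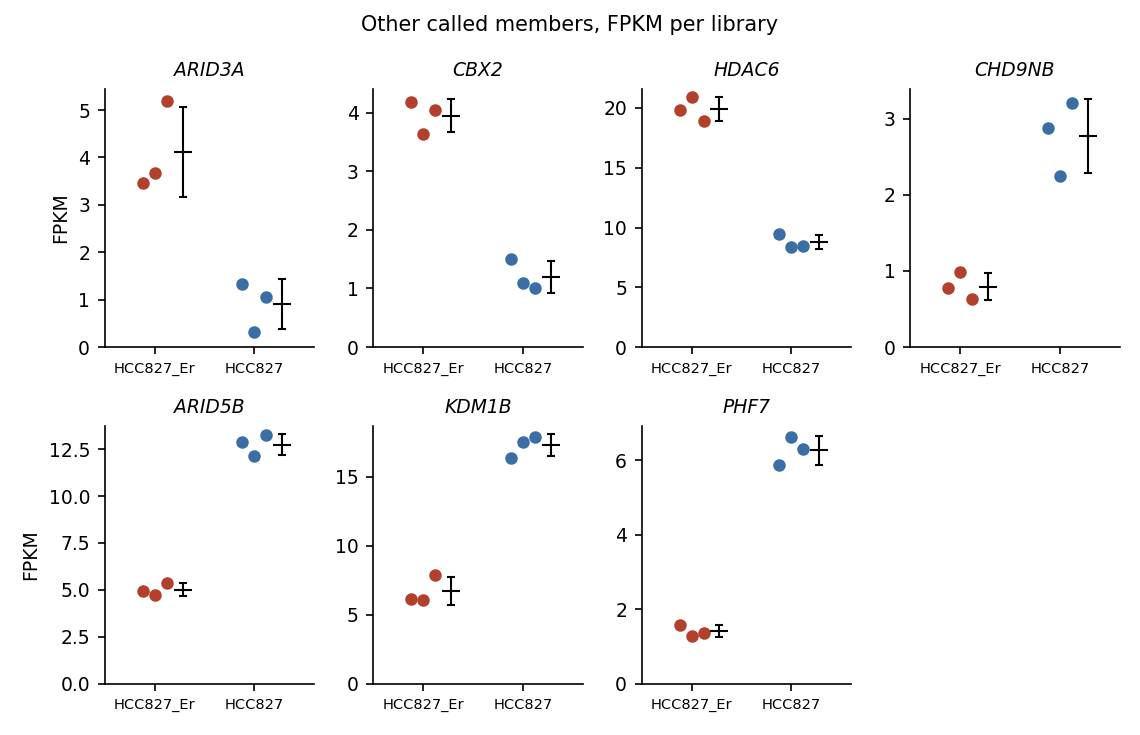
FPKM of the 7 called members other than DNMT3A in each of the 3 HCC827_Er (red) and 3 HCC827 (blue) libraries, each panel with its own axis from 0 and with the mean and SD in black. ARID3A, CBX2 and HDAC6 lie higher in HCC827_Er and CHD9NB, ARID5B, KDM1B and PHF7 lower, with no overlap in any panel.

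Subunits of the SWI/SNF remodellers did not share a direction. DPF2 and PHF10 are related double PHD finger subunits that take the same place in different complexes, DPF2 in BAF and PHF10 in PBAF. DPF2 measured 23.59, 20.11 and 23.03 FPKM in HCC827_Er and 35.47, 34.49 and 35.48 FPKM in HCC827 (log2 difference -0.64). PHF10 measured 14.45, 16.02 and 14.14 FPKM in HCC827_Er and 8.49, 8.86 and 9.40 FPKM in HCC827 (log2 difference 0.68). Neither was called. PHF10 was higher and DPF2 lower in every HCC827_Er library, so their ratio could not overlap between the lines. PHF10 stood at 0.613, 0.797 and 0.614 times DPF2 in HCC827_Er and at 0.239, 0.257 and 0.265 times DPF2 in HCC827. SMARCD1, a subunit that links SWI/SNF to transcription factors, measured 25.45, 28.31 and 26.04 FPKM in HCC827_Er and 46.44, 45 and 43.70 FPKM in HCC827. Its log2 difference of -0.74 (SE 0.0671, limma adjusted p = 8.09e-06) passed the limit only after median-ratio rescaling (-1.07). SMARCA1, an ATPase of the ISWI class, measured 12.09, 12.90 and 14.66 FPKM in HCC827_Er and 20.08, 19.76 and 23.18 FPKM in HCC827 (log2 difference -0.63). CHD1L, a remodeller recruited to DNA breaks by poly(ADP-ribose), measured 34.67, 38.73 and 44.43 FPKM in HCC827_Er and 23.84, 24.06 and 23.76 FPKM in HCC827 (log2 difference 0.69). Of 37 other names of remodelling subunits 9 were tested and 2 called, both higher. Over all tested genes 24.7% were called higher and 19.7% lower. BCL11A, a zinc finger protein found in SWI/SNF complexes, reached 5.29 ± 0.199 FPKM in HCC827_Er, against 0.110 ± 0.0917 FPKM in HCC827, and BAZ2B, a bromodomain protein, 16.8 ± 0.766 FPKM in HCC827_Er, against 6.67 ± 1.65 FPKM in HCC827. BAZ2B was not called with median-ratio rescaling.

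The ARID genes listed are not SWI/SNF subunits but DNA-binding proteins with the same domain, and they diverged. ARID3A (ENSG00000116017, chromosome 19 from 925781 to 975934), a transcription factor first described in B cells, measured 3.47, 3.67 and 5.2 FPKM in HCC827_Er and 1.34, 0.32 and 1.05 FPKM in HCC827. It showed the largest rise of all tested members (log2 difference 1.45, SE 0.223, limma adjusted p = 0.000222), from a low and variable level in HCC827. Its paralogue ARID3B measured 4.71, 4.04 and 3.13 FPKM in HCC827_Er and 2.05, 2.67 and 1.80 FPKM in HCC827 (log2 difference 0.64, not called). ARID5B (ENSG00000150347, chromosome 10 from 61901300 to 62096944), a partner of the demethylase PHF2, measured 4.93, 4.73 and 5.38 FPKM in HCC827_Er and 12.88, 12.12 and 13.23 FPKM in HCC827. ARID5B fell 2.54-fold, with a narrow spread in both lines (log2 difference -1.19, SE 0.0949, limma adjusted p = 3.55e-06), and was not called with the sum rescaling. CHD9NB matches the symbol rule only as a neighbour of CHD9 and is no remodeller of that family. It was low, at 0.77, 0.98 and 0.63 FPKM in HCC827_Er and 2.87, 2.25 and 3.20 FPKM in HCC827 (log2 difference -1.07, limma adjusted p = 6.41e-05). It was not called without HCC827 replicate 3 (-0.99) or with the sum rescaling.

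Both listed TAF genes, which encode subunits of the general transcription factor TFIID, stood higher in HCC827_Er and were not called. Of all tested genes 51.4% had a positive difference, 24.7% were called higher and 19.7% lower. Both TAF genes lie on chromosome X, where 86.5% of the tested genes had a positive difference. TAF1, the largest subunit and a double bromodomain protein, measured 24.16, 25.74 and 26.45 FPKM in HCC827_Er and 12.85, 13.38 and 19.88 FPKM in HCC827. HCC827 replicate 3 stood apart from the other 2 of its line, and without it the log2 difference of 0.72 was 0.91. TAF9B, a paralogue of the subunit TAF9, measured 17.11, 17.28 and 18.14 FPKM in HCC827_Er and 9.36, 10.22 and 10.87 FPKM in HCC827 (log2 difference 0.73). Reads of close paralogues such as TAF9 and TAF9B can be shared, and their split was not checked.

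Of the remaining lists, the deacetylase complexes had 7 of 32 names tested and MTA1, a subunit of the NuRD complex, called higher. MTA1 measured 120 ± 18.1 FPKM in HCC827_Er and 57.6 ± 4.90 FPKM in HCC827, a log2 difference of 1.03 that was 0.91 without HCC827_Er replicate 1, 0.99 without HCC827 replicate 3 and 0.69 with median-ratio rescaling. Of 46 names of histone chaperones and other acyl-lysine readers 12 were tested, 3 were called higher and MLLT6 lower. For this list and the deacetylase complexes, the shares over all tested genes were 24.7% called higher and 19.7% lower. BRWD3, a bromodomain protein, rose most, to 15.3 ± 2.30 FPKM in HCC827_Er, against 2.96 ± 0.353 FPKM in HCC827. SP140L, a bromodomain protein of the SP100 family, rose to 32.6 ± 7.24 FPKM in HCC827_Er, against 14.1 ± 0.356 FPKM in HCC827, and was not called without HCC827_Er replicate 2 or with median-ratio rescaling. Its relative SP110 was the other called gene of the group, at 1.01 on the log2 scale. Over all lists 11 of the 60 tested genes were called higher, where 24.7% of all tested genes were, and 4 lower, where 19.7% were, with a median log2 difference of 0.71. With median-ratio rescaling 3 were called higher (17.0% of all tested genes) and 11 lower (31.4%), and with the sum rescaling 25 higher (34.6%) and 3 lower (15.0%).

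Several of the members are neighbours in the genome of genes that differed in the same direction, and chromosome X carried the most of them. The 7 members on chromosome X were HDAC6, KDM6A, PHF8, TAF1, TAF9B, PHF6 and SMARCA1. SMARCA1 alone of them stood lower in HCC827_Er. Of all 267 tested genes of chromosome X, 86.5% had a positive difference, 39.0% were called higher and 7.49% lower, and their median log2 difference was 0.86. The listed X-linked partner genes, 8 of the 60 tested, were all positive, among them ZBTB33 and BRWD3. Chromosome 14, with 86.7% positive, carried none of the members, and the next highest share was 71.3% on chromosome 2. Within 2 Mb of the start of HDAC6, 17 of 18 other tested genes were positive, and near PHF8 all 7 and near TAF9B all 5 were. Near PHF6 11 of 14 were positive, near TAF1 11 of 15 and near KDM6A 4 of 7. Around SMARCA1 all 6 tested neighbours were positive, opposite to SMARCA1 itself. Away from chromosome X, 24 of 29 tested neighbours of DNMT1 were positive, against 63.8% of the tested genes of chromosome 19. Of 9 tested neighbours of KDM1B 5 were called lower, against 19.7% of all tested genes. SMARCD1 stood lower although 6 of its 9 tested neighbours were positive, and CHD9NB although 5 of 6 were. ARID3B and ING2 stood higher although only 2 of 9 and 2 of 6 tested neighbours were positive. Copy number was not measured here, and its part in these values was not tested.

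**Figure D4:**
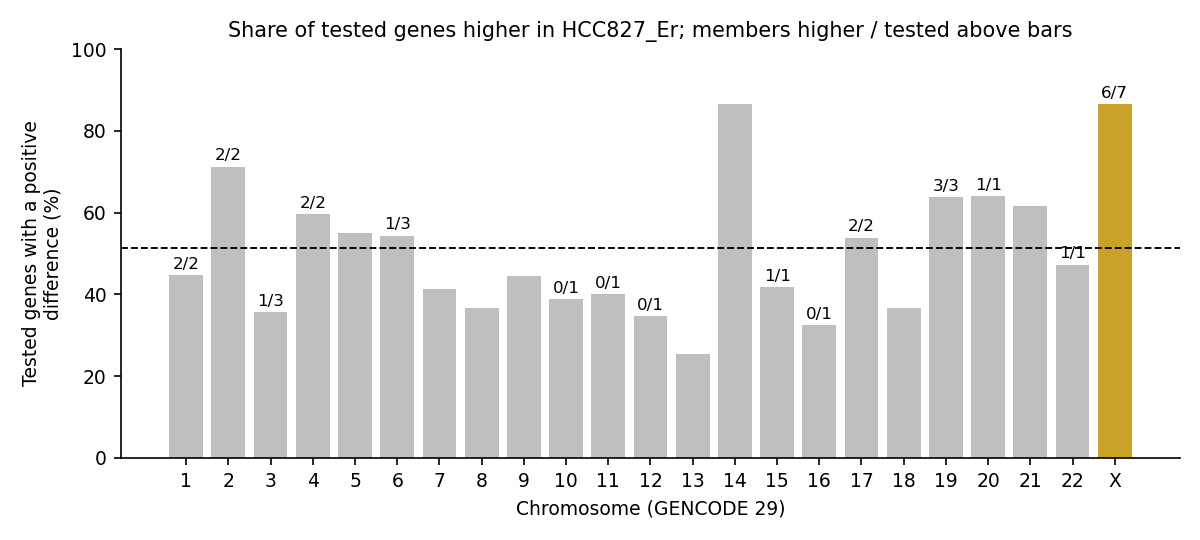
Percent of tested genes with a positive log2 difference, HCC827_Er minus HCC827, on each chromosome, with the 51.4% of all tested genes as a dashed line. Numbers above bars are members with a positive difference over members tested; chromosome X (gold) stands at 86.5% with 6 of 7 members positive.

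The balance of higher and lower calls depended on how the libraries were scaled. Median-ratio rescaling moved the median difference of all tested genes by -0.30 on the log2 scale, and rescaling to equal sums moved it by 0.21. With the first, ARID3A alone of the members was called higher, where 17.0% of the tested genes were, and PHF7, KDM1B, ARID5B, CHD9NB and SMARCD1 were called lower, where 31.4% were. With the second, ARID3A, CBX2, HDAC6, DNMT3A, DNMT3B, PHF8 and DNMT1 were called higher, where 34.6% of the tested genes were, and PHF7 and KDM1B lower, where 15.0% were. ARID3A, PHF7 and KDM1B were called with all 3 scalings. No member changed its direction under either, though the smallest member difference as deposited, -0.46 for KAT2B, was larger in size than either shift. CBX7, CBX8 and KMT5C had no adjusted p under 0.05 with the first (limma adjusted p = 0.186, 0.205 and 0.0804), and KAT2B had none with the second (limma adjusted p = 0.0655).

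**Figure D5:**
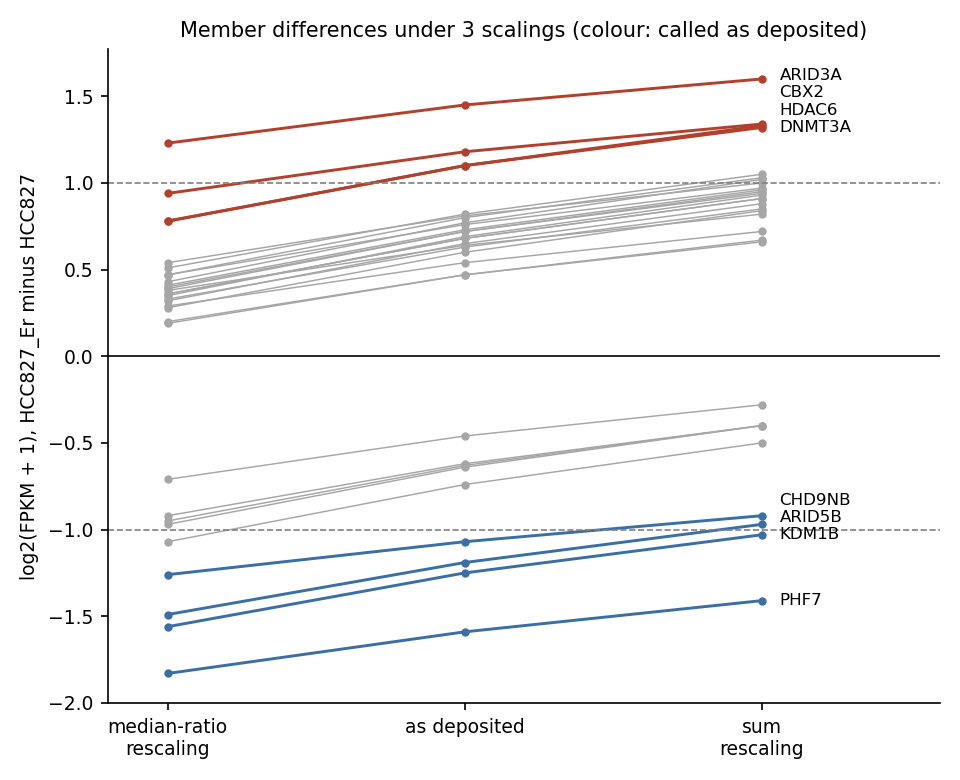
Log2(FPKM + 1) difference, HCC827_Er minus HCC827, of the 31 tested members with median-ratio rescaling, as deposited, and with rescaling to equal library sums, with dashed lines at -1 and 1. The lines shift together and none crosses 0; ARID3A (1.23 to 1.6), PHF7 (-1.83 to -1.41) and KDM1B (-1.56 to -1.03) stay past the limits.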

How the data were processed

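Illumina TruSeq RNA libraries were made from total RNA of 6 samples, per the labels' protocols. The authors deposited FPKM values, 1 per gene and library, in a single table. Per the submitters' processing notes, the tools were StringTie, HISAT2 and fastp and the builds GRCh38.p14 and hg19, with no role named for either. Not given in the sources used here are tool versions, annotation, strand setting and how the listed genes were selected. A few abundant transcripts lower the FPKM of all others.

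Symbols were matched by identifier for 6636 of 6641 genes, and gene types and positions taken from GENCODE 29, which need not be the authors' annotation. A noncoding match of the symbol rule, PRMT5-DT, was left out. Exons of 8 members overlap those of other genes, by at most 17.9% of their length for any partner, and without strand such reads cannot be told apart. A minimum of 1 FPKM in at least 3 libraries left 5276 genes to test and 1365 untested. Testing used R 4.3.3 with limma 3.58.1, moderated with a mean-variance trend, on log2(FPKM + 1), which understates changes of low genes. The cell line was the only term, and p-values were adjusted over all tested genes by the Benjamini-Hochberg method. Means and SDs are of FPKM over 3 libraries. With 3 libraries a line, exact permutation has a smallest two-sided p of 0.1; no such test was run. The script was checked on simulated data.

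The members, gene lists and tests were chosen with earlier results of these data known, and ratios between members, neighbour windows and chromosome shares after their values were seen. Every member was named, and from each list up to 3 called genes with the largest differences. EZH2, SP110, PRDM4 and CXXC1 were added after their values were seen. Of the list genes chosen by largest difference, 1 is not reported here. Promoters were to be those of the 4 called members with the largest differences, of which 2 had an entry. The alternatives changed the pseudocount, the minimum FPKM, the scaling of the libraries, the variance model and the call rule, added the replicate number as a block, or dropped a library.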

Additional observations from a re-analysis of the deposited data

How the results depend on the processing

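Every member kept its direction under every alternative in which it was tested. Most alternatives could not have changed it, since no member overlapped between the lines. Only the rescalings could, and their median shifts were smaller in size than every member difference as deposited. Members called higher and lower numbered 4 and 4 as reported, and the same with no mean-variance trend, robust estimation or no minimum FPKM. They were 0 and 0 with a pseudocount of 5, 1 and 5 with median-ratio rescaling, 7 and 2 with the sum rescaling, 22 and 9 with no minimum difference, and 0 and 1 (PHF7) when tested against a difference of 1. With a minimum of 5 FPKM 2 were called higher, since ARID3A and CBX2 were no longer tested. Among all tested genes, 1304 higher and 1041 lower as reported, the numbers were 579 and 506 with a pseudocount of 5, 2672 and 2515 with no minimum difference, 827 and 664 against a difference of 1, 867 higher with a minimum of 5 FPKM and 1657 lower with median-ratio rescaling. Partner genes, 11 and 4 as reported, gave 3 higher with a pseudocount of 5 or against a difference of 1, 3 higher and 11 lower with median-ratio rescaling, 25 higher with the sum rescaling, and 39 and 20 with no minimum difference. With a pseudocount of 0.1 TET3 was also called higher (1.01).

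Leaving out 1 library gave 3 to 4 members called higher and 3 to 4 lower, 1298 to 1334 and 1034 to 1056 of all genes, and 11 to 14 and 4 to 5 partner genes. The replicate numbers did not pair the libraries (correlations of same-numbered deviations of 0.106, -0.0219 and 0.0489, and not every library correlated best with its own number). With the replicate block 4 members were called higher and 4 lower, and 1304 and 1041 of all genes. Depth and counting error could not be read from the table, which limits low genes such as TET1, CHD9NB and ARID3A most.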
